A study of Arabidopsis thaliana with 9 samples.

Results

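The GASA genes of Arabidopsis thaliana encode small secreted peptides with a cysteine-rich end, named for their likeness to GAST1, a gibberellin-stimulated transcript of tomato. A set of 9 was taken by locus ID from the count table and followed across 3 genotypes: GASA1 (AT1G75750), GASA2 (AT4G09610), GASA3 (AT4G09600), GASA4 (AT5G15230), GASA5 (AT3G02885), GASA6 (AT1G74670), GASA9 (AT1G22690), GASA10 (AT5G59845) and GASA14 (AT5G14920). The table held 32833 genes in all, and 6 of the 9 held enough counts to be tested. The 9 libraries came from whole rosettes, the whorl of leaves at the base of the plant, taken at 4 weeks under long days (16 h light, 8 h dark). WT was the unmodified wild type, TINYOE carried the genotype label BES1P::TINYOE, and tiny124 carried the label tiny1tiny2tiny4. Each genotype had 3 replicates, and no treatment was named for any of them. The labels do not say how many lines or plants stood behind a genotype or whether replicates were separate plants, so the p-values speak only to the variation among these libraries, part or all of which could be technical.

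Gibberellin is a growth hormone that acts by removing the DELLA proteins, which repress growth. Several GASA genes respond to it, some rising and some falling, and the peptides have been linked to cell elongation, germination, flowering time and the redox state of tissues. TINY is an AP2/ERF transcription factor, and the title of the series places it between brassinosteroid-regulated growth and the response to drought. Brassinosteroids are steroid hormones that also promote cell elongation.

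Libraries were made with the QuantSeq FWD kit, which takes a single fragment per polyadenylated transcript, close to its 3' end. Levels are given as CPM, the usual reads-per-library-size unit, here after TMM scaling. A longer transcript gives no more fragments than a shorter one in this assay, so CPM was not divided by length when genes were compared. Total counts ranged from 4917868 to 6070778, and the 9 genes together took between 0.0719% and 0.116% of them. TINY itself lay at 4.06 ± 0.45 CPM in WT (SD, n = 3), 5.39 ± 0.762 in TINYOE and 0.706 ± 0.132 in tiny124. Its decrease in tiny124 passed the test (edgeR adjusted p = 0.00168), and its difference between TINYOE and WT did not (log2 fold change 0.40 ± 0.27 SE, adjusted p = 0.343). A 3' tag reads a transgene only where the transgene keeps the 3' end of the gene, which the sources used here do not give. TINY2 (AT5G11590) was too low to be tested, with 23 counts over the WT libraries, 3 over TINYOE and 1 over tiny124. WT replicates 1 and 2 differed more than other replicate pairs, with a chi-square of 22.7 per degree of freedom over genes against 4.74 to 11.2 in the other 8 pairs of libraries of 1 genotype.

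The levels of the 9 genes spanned a wide range. In WT, GASA1 was the most abundant at 585 ± 91.9 CPM, followed by GASA9 at 273 ± 67.2 and GASA6 at 67.7 ± 0.812. GASA14 at 51.2 ± 13.8 and GASA4 at 32.2 ± 7.35 came next, and their libraries overlapped. GASA5 lay at 2.77 ± 1.67 CPM, and GASA10, GASA2 and GASA3 were each under 1 CPM in every WT library. In TINYOE the order at the top was no longer separable, since GASA9 at 259 ± 41.5 CPM and GASA1 at 244 ± 34 overlapped. In tiny124, GASA14 at 95.5 ± 15.4 CPM stood above both GASA4 at 48.8 ± 5.58 and GASA6 at 46.1 ± 6.08, and the last pair overlapped.

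**Figure D1:**
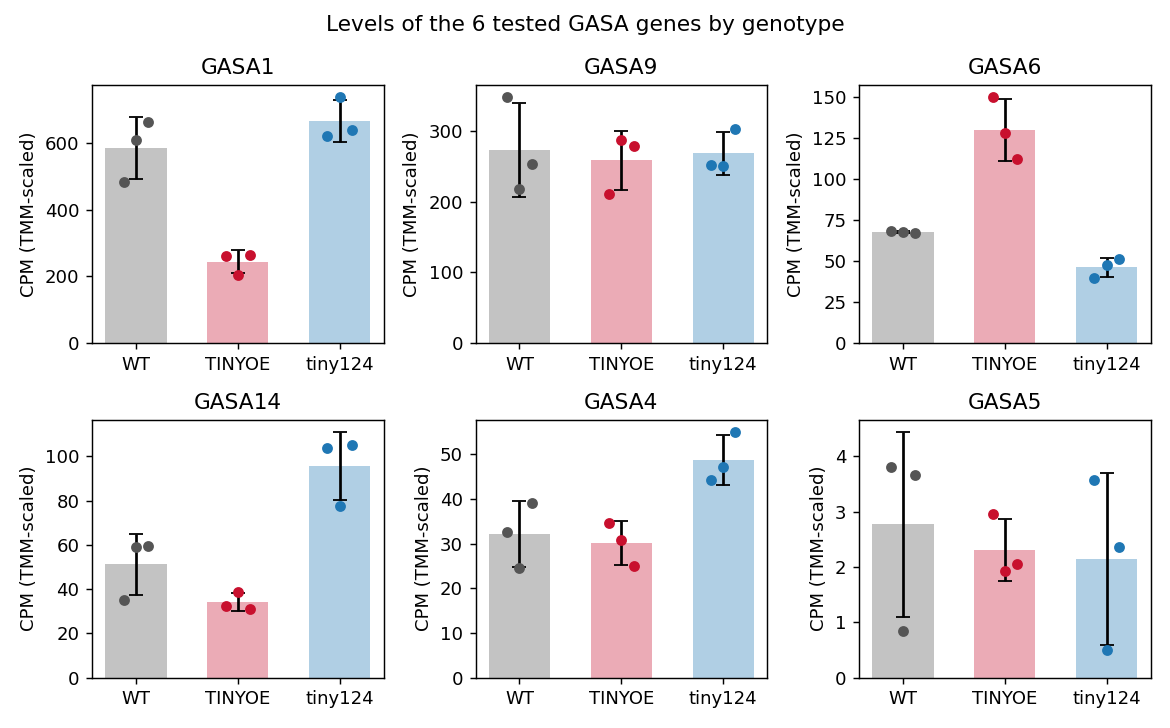
CPM of the 6 tested GASA genes by genotype, with a panel and a y axis of its own for each gene. Points are libraries, bars are means of 3 libraries and error bars are SD; GASA1 in TINYOE lies between 205 and 265 CPM and in WT between 483 and 662, while GASA6 lies between 112 and 150 in TINYOE and between 66.9 and 68.5 in WT.

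In TINYOE, GASA1 fell and GASA6 rose against WT. GASA1, a gene known to rise with gibberellin, was at 483, 610 and 662 CPM in WT replicates 1, 2 and 3 and at 262, 205 and 265 CPM in TINYOE. Every TINYOE library was under every WT library, and the log2 fold change was -1.26 ± 0.17 (SE; edgeR adjusted p = 0.000151), a level 2.4-fold lower. In bulk rosettes, fewer cells of a type and less RNA per cell cannot be told apart, and this holds for each difference reported here. GASA6, which in Arabidopsis promotes germination and the elongation of the embryonic axis, was at 68.5, 67.8 and 66.9 CPM in WT and at 150, 128 and 112 CPM in TINYOE. All 3 TINYOE libraries were above all 3 WT libraries, and the log2 fold change was 0.94 ± 0.17 (edgeR adjusted p = 0.00136), a level 1.92-fold higher.

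The other 4 tested members did not pass the test in TINYOE against WT. GASA14, which promotes leaf expansion and has been tied to tolerance of stress, was at 35.3, 58.9 and 59.4 CPM in WT and at 32.4, 38.7 and 31.1 CPM in TINYOE. WT replicate 1 lay inside the range of TINYOE, and the log2 fold change was -0.59 ± 0.21 (edgeR adjusted p = 0.0714). Without WT replicate 1 it was -0.78 with an adjusted p of 0.0111 by the same edgeR test, and with all libraries but no filter on low counts it was -0.59 with an edgeR adjusted p of 0.032. GASA4, a gibberellin-induced gene active in meristems, had a log2 fold change of -0.10 ± 0.20 (edgeR adjusted p = 0.784). GASA9 had a log2 fold change of -0.08 ± 0.19, with a 95% interval from -0.54 to 0.39. Thus 1 member was called higher and 1 lower of the 6 tested. Of all 16434 tested genes, 15.6% were called, 8.15% higher and 7.44% lower. The median log2 fold change of the 6 was -0.19, and that of all tested genes was 0.

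**Figure D2:**
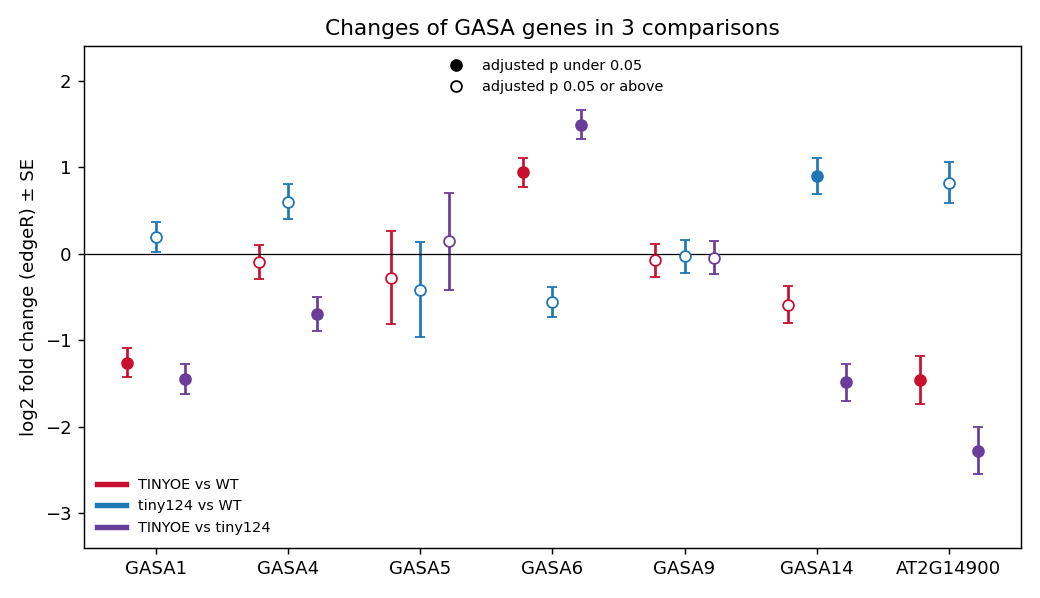
Log2 fold changes from edgeR (y axis) of the 6 tested GASA genes and of the related gene AT2G14900, in 3 comparisons shown by colour, with error bars of 1 SE. Filled points have an adjusted p under 0.05; GASA6 is filled above 0 and GASA1 filled below 0 in TINYOE against WT, and GASA14 is the only filled point of tiny124 against WT.

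In tiny124, GASA14 rose against WT. It was at 104, 77.7 and 105 CPM in tiny124 replicates 1, 2 and 3, all above the highest WT library at 59.4 CPM. The log2 fold change was 0.90 ± 0.21 (edgeR adjusted p = 0.029), a level 1.87-fold higher. This call was lost when WT replicate 1 (0.70, edgeR adjusted p = 0.0737), WT replicate 3 (1.03, 0.0557), tiny124 replicate 1 (0.84, 0.148) or tiny124 replicate 3 (0.83, 0.102) was left out. It was also lost when the 6 libraries of this comparison were fitted alone (0.90, edgeR adjusted p = 0.0653). Of the 6 tested members, 1 was called higher and 0 lower, beside 2.5% of all tested genes, 1.75% higher and 0.755% lower.

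GASA6 and GASA4 were not called in tiny124 against WT, and their libraries did not overlap. The share of all tested genes without overlap was not counted for any comparison, so absence of overlap is a description only. GASA6 was at 39.4, 47.6 and 51.2 CPM in tiny124, with a log2 fold change of -0.56 ± 0.17 (edgeR adjusted p = 0.122). GASA4 was at 32.7, 24.6 and 39.2 CPM in WT and at 44.2, 47.1 and 55 CPM in tiny124, with a log2 fold change of 0.60 ± 0.20 (edgeR adjusted p = 0.167). GASA1 was at 620, 737 and 638 CPM in tiny124, which overlapped WT. Its log2 fold change was 0.19 ± 0.17, and the 95% interval from -0.22 to 0.59 did not reach the size of its change in TINYOE. The median log2 fold change of the 6 members was 0.08, and that of all tested genes was -0.01.

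Compared directly, TINYOE and tiny124 differed in 4 of the 6 tested members, 1 higher and 3 lower in TINYOE, beside 9.85% of all tested genes, 5.12% higher and 4.73% lower. GASA1 was lower in TINYOE by a log2 fold change of -1.45 ± 0.17 (edgeR adjusted p = 5.38e-05). GASA14 was lower by -1.49 ± 0.21 (edgeR adjusted p = 0.000267), a level 2.8-fold lower. GASA4 was at 34.6, 30.9 and 24.9 CPM in TINYOE, all under the tiny124 libraries, with a log2 fold change of -0.70 ± 0.20 (edgeR adjusted p = 0.0349). Among the fits that left out 1 library, the GASA4 call was lost without TINYOE replicate 2 or 3 or any single tiny124 replicate, with edgeR adjusted p-values from 0.0639 to 0.153. GASA6 was the member that was higher in TINYOE, by 1.49 ± 0.17 (edgeR adjusted p = 4.12e-05), a level 2.82-fold higher. The median log2 fold change of the 6 members was -0.37, and that of all tested genes was 0.01.

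A ratio between members within a library does not depend on how that library was scaled. Counts of GASA1 over counts of GASA6 were 7.05, 9 and 9.89 in the WT libraries, 1.75, 1.61 and 2.37 in those of TINYOE, and 15.8, 15.5 and 12.5 in those of tiny124. Counts of GASA14 over counts of GASA6 were 0.515, 0.869 and 0.888 in the WT libraries, 0.216, 0.304 and 0.278 in those of TINYOE, and 2.64, 1.63 and 2.05 in those of tiny124. For both ratios TINYOE was lowest, WT lay between and tiny124 was highest, with no overlap between genotypes. These ratios were chosen after the values were seen and carry no test.

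**Figure D3:**
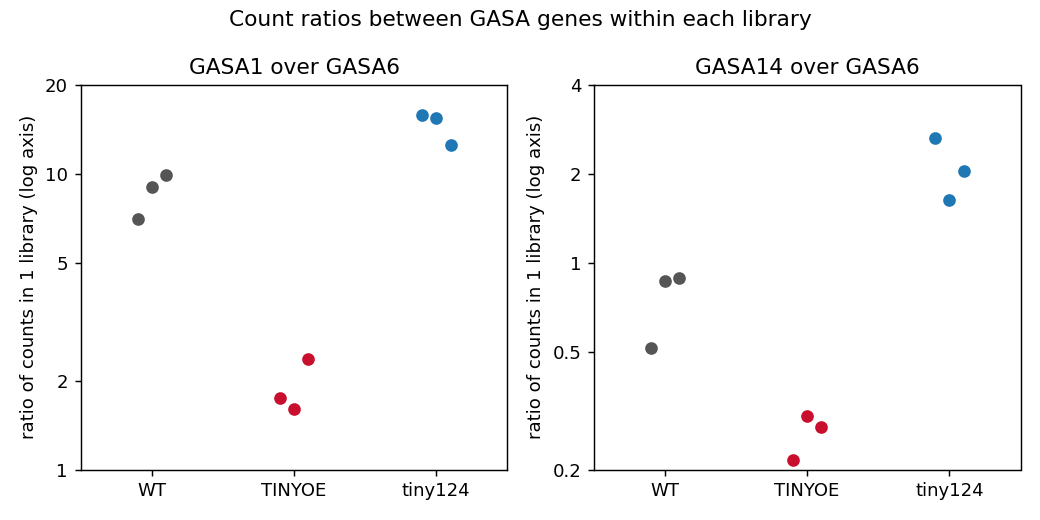
Ratio of the counts of GASA1 to those of GASA6 (left) and of GASA14 to those of GASA6 (right) in each library, on log axes. Each point is 1 library; TINYOE lies between 1.61 and 2.37 on the left and tiny124 between 12.5 and 15.8.

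The summed level of the 9 genes was 972.4, 980 and 1086 CPM in WT, 693.8, 693.1 and 715.1 CPM in TINYOE, and 1064, 1161 and 1156 CPM in tiny124. TINYOE was below the other genotypes in all 3 libraries, and WT and tiny124 overlapped. GASA1 made up 57.6 ± 6.9% of the counts of the 9 genes in WT (SD, n = 3), 34.8 ± 4.55% in TINYOE and 59 ± 4.14% in tiny124. GASA6 made up 6.71 ± 0.479% in WT, 18.6 ± 2.95% in TINYOE and 4.08 ± 0.366% in tiny124. The share of GASA9 was 27.2 ± 7.5% in WT, 37.0 ± 5.73% in TINYOE and 23.8 ± 2.3% in tiny124. Its libraries overlapped between WT (22.3 to 35.8%) and TINYOE (30.5 to 41.4%). A share also depends on the counts of the other members, so it can move while the level of that gene does not.

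**Figure D4:**
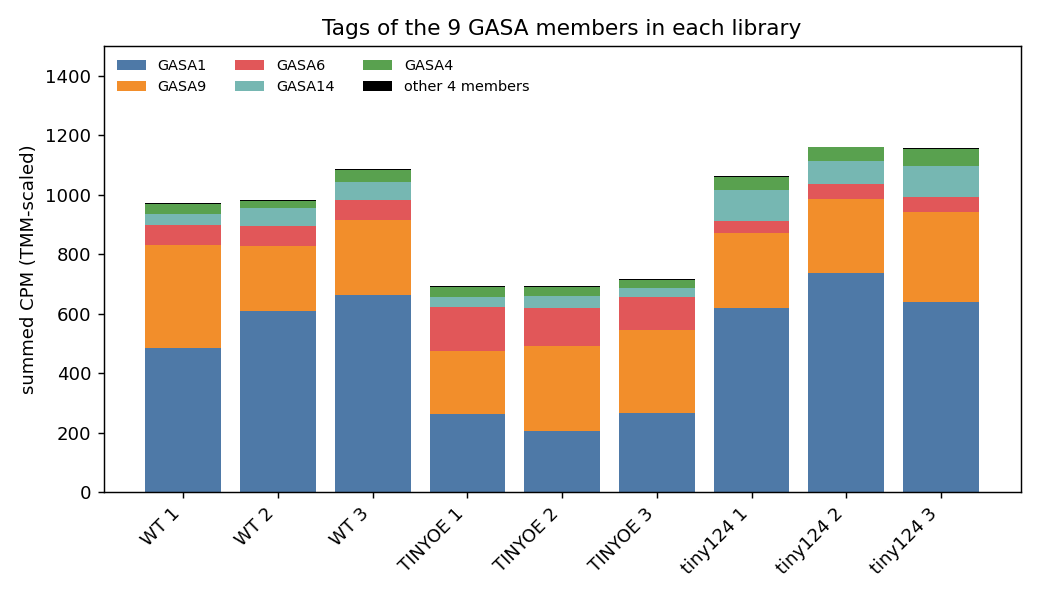
Summed CPM of the 9 GASA genes in each library (y axis), stacked by gene. GASA1 is the bottom segment and shrinks in the 3 TINYOE libraries, where the stack reaches 693.1 to 715.1 CPM.

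GASA9 varied as much within genotypes as between them. It was at 348, 218 and 254 CPM in WT, 211, 287 and 279 CPM in TINYOE, and 252, 250 and 303 CPM in tiny124. Its log2 fold change between tiny124 and WT was -0.03 ± 0.19, with a 95% interval from -0.49 to 0.44. GASA5, which in Arabidopsis delays flowering, was low: the WT libraries held 20, 4 and 20 of its counts, the TINYOE libraries 18, 11 and 12, and the tiny124 libraries 19, 3 and 13. The genotypes overlapped, and the 95% interval of its log2 fold change in TINYOE against WT ran from -1.60 to 1.05. This interval is wider than the edgeR test implies, so whether a 2-fold rise is allowed is not settled.

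The other 3 members were too low to be tested. For GASA10 the WT libraries held 3, 0 and 4 counts, the TINYOE libraries 3, 7 and 4, and the tiny124 libraries 3, 9 and 7. Its summed counts corresponded to 95% Poisson intervals of 0.182 to 0.934 CPM in WT, 0.434 to 1.33 CPM in TINYOE and 0.678 to 1.76 CPM in tiny124, which overlap and cover counting error only. GASA2 had 2 counts over the WT libraries, 5 over TINYOE and 1 over tiny124. GASA3, which lies next to GASA2 on chromosome 4, had 1 count in TINYOE replicate 2 and 0 in the other 8 libraries. A count of 0 over the 3 libraries of a genotype allowed up to 0.194 CPM in WT and 0.178 CPM in tiny124, taking 3 counts as the limit.

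A further 6 loci of the family in Arabidopsis were read beside these genes, and AT2G14900, annotated as a gibberellin-regulated family protein, was the 1 that could be tested. It was at 13.7, 9.74 and 8.07 CPM in WT, 3.13, 3.86 and 4.44 CPM in TINYOE, and 18.1, 23 and 14.5 CPM in tiny124. The 3 genotypes did not overlap. It fell in TINYOE against WT by 1.46 on the log2 scale (SE 0.28, edgeR adjusted p = 0.00223) and was lower in TINYOE than in tiny124 by a log2 fold change of -2.28 ± 0.27 (edgeR adjusted p = 4.95e-05). Its log2 fold change in tiny124 against WT was 0.82 ± 0.24 (edgeR adjusted p = 0.0972), and without WT replicate 1 it was 1.07 with an edgeR adjusted p of 0.0316. AT2G39540, AT2G30810 and AT1G10588 had 0 counts in every library, AT3G10185 had 1 count in all, and AT2G18420 had 0 to 7 counts per library.

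Genes of the gibberellin pathway itself were read from a list. Of 39 listed genes of synthesis, inactivation, perception, signalling and transport, 20 were tested and 5 had 0 counts throughout. In TINYOE against WT, 0 of the 20 were called higher and 2 lower, beside 15.6% of all tested genes called, and their median log2 fold change was 0.20 beside 0 for all tested genes. In tiny124 against WT, 0 were called higher and 1 lower (median 0.01), beside 2.5% of all tested genes. In TINYOE against tiny124, 0 were called higher and 2 lower (median 0.13), beside 9.85% of all tested genes. RGL1 (AT1G66350), which encodes a DELLA repressor, was at 18.6, 13.6 and 21.6 CPM in WT, 3.79, 5.08 and 4.1 CPM in TINYOE, and 17.5, 15.4 and 14.7 CPM in tiny124. TINYOE stood below both other genotypes, with a log2 fold change of -2.05 ± 0.24 against WT (edgeR adjusted p = 3.67e-05) and -1.87 ± 0.24 against tiny124 (edgeR adjusted p = 9.37e-05). The other 3 tested DELLA genes did not pass the test against WT: GAI had a log2 fold change of -0.05 ± 0.18, RGA 0.24 ± 0.21 and RGL3 0.29 ± 0.40. None of the 3 GID1 receptor genes passed it either, with log2 fold changes from 0.18 for GID1A to 0.47 for GID1C (edgeR adjusted p = 0.682 and 0.0971).

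The remaining calls in the pathway were of transporters. SWEET13, a sugar transporter that also moves gibberellin, was at 2.09, 4.45 and 6.23 CPM in WT and at 0.165, 1.23 and 0.513 CPM in TINYOE. Its TINYOE libraries held 1, 7 and 3 counts, and the log2 fold change was -2.73 ± 0.57 (edgeR adjusted p = 0.00446). Without TINYOE replicate 2 it was -3.58, and over all fits that left out 1 library it ran from -3.58 to -2.27 and stayed called. Against tiny124 it was -2.40 ± 0.59 (edgeR adjusted p = 0.015), a call lost without TINYOE replicate 1 (-1.94, 0.0703), TINYOE replicate 3 (-2.28, 0.0685) or tiny124 replicate 1 (-2.01, 0.0841). Without TINYOE replicate 2 it was -3.26 and stayed called (edgeR adjusted p = 0.0131). NPF3, a gibberellin importer, was the 1 listed gene called in tiny124 against WT, at 27.3, 26.8 and 32.5 CPM in tiny124 and 58.1, 43 and 52.4 CPM in WT. Its log2 fold change was -0.83 ± 0.18 (edgeR adjusted p = 0.0213), and the call was lost without WT replicate 1 or 3 or tiny124 replicate 1 or 2, with edgeR adjusted p-values from 0.0682 to 0.128. Of 14 listed synthesis genes 5 were tested, and 0 of these were called in any of the 3 comparisons. Over all tested genes the share called was 15.6% in TINYOE against WT, 2.5% in tiny124 against WT and 9.85% between the lines. A count of 0 among 5 genes is near those shares. The 1 tested inactivation gene, GA2OX2, had a log2 fold change of 1.32 ± 0.41 in tiny124 against WT (edgeR adjusted p = 0.13).

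Summed levels of leaf and flower markers also differed between TINYOE and WT. The summed level of 5 leaf markers was 16580 to 18500 CPM in TINYOE, 21720 to 27250 CPM in WT and 21810 to 23230 CPM in tiny124. In TINYOE against WT, 4 of the 5 were called lower, beside 7.44% of all tested genes. The log2 fold changes of those 4 ran from -0.68 to -0.47 (edgeR adjusted p from 0.0088 to 0.0466). The summed level of 9 flower markers was 40.01 to 80.63 CPM in TINYOE, 21.81 to 35.5 CPM in WT and 31.96 to 37.09 CPM in tiny124. Of the 7 flower markers tested, 2 were called higher in TINYOE against WT, beside 8.15% of all tested genes. These were PI and SEP2 (edgeR adjusted p = 0.0282 and 0.00131). The libraries of PI overlapped, with TINYOE replicate 1 at 14.8 CPM and WT replicate 1 at 17.7 CPM. Every flower marker had at least 1 count in each genotype. The 6 root markers summed to at most 0.8543 CPM and 8 seed markers to at most 2.563 CPM in any library, with RHD6 at 0 in WT and TINYOE and SESA1 at 0 in all 3 genotypes. The part of these markers in the GASA differences was not tested.

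The neighbours of the called members on the chromosome were also read. Among the 10 tested genes on each side of GASA1, the median log2 fold change in TINYOE against WT was -0.02. Of these 20, 1 was called higher and 2 lower, beside 15.6% of all tested genes called. Around GASA6 the median was 0.14 in the same comparison, with 1 called higher and 1 lower. Around GASA14 it was 0.13 in tiny124 against WT, with 0 called, beside 2.5% of all tested genes. Around GASA4 it was -0.08 in TINYOE against tiny124, with 1 called higher and 0 lower, beside 9.85% of all tested genes.

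Genes outside the family with levels over the 9 libraries most like those of a member were sought by the root-mean-square difference of log2(CPM + 1). Each gene was centred on its own mean. The 5721 candidates were tested genes with a gene symbol and a mean of at least 5 CPM. In all, 12092 tested genes had such a mean, so a closer gene without a symbol would not be seen, and closest means closest among the candidates. TIP2;2, a vacuolar aquaporin, was closest to GASA1 at a difference of 0.092, with mean levels of 133 CPM in WT, 55.8 in TINYOE and 143 in tiny124. AOS, an enzyme of jasmonate synthesis, followed at 0.171. CRT3, a calreticulin, was near GASA6 at 0.207, with 331, 564 and 230 CPM in WT, TINYOE and tiny124, after ABCC12, an ABC transporter, at 0.181. PP2-A5 and FLA12 were closest to GASA14 at 0.228 and 0.266, and E13L3 and G6PD6 to GASA4 at 0.13 and 0.17. These are descriptions with no test.

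The authors' deposited table, made without WT replicate 2, gives GASA1 in TINYOE a log2 fold change of -1.23 with an adjusted p of 2.21e-06 from DESeq2. For GASA6 in TINYOE the authors' deposited table gives 0.94 with an adjusted p of 0.0216 from DESeq2. For GASA14 in tiny124 the authors' deposited table gives 1.01 with an adjusted p of 0.00279 from DESeq2. Without WT replicate 2, the edgeR log2 fold changes were -1.22 for GASA1 and 0.94 for GASA6 in TINYOE, and 1.02 for GASA14 in tiny124, each still called.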

How the data were processed

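Per the labels, RNA was read as 50 nt single reads with the QuantSeq FWD kit and mapped to TAIR10 with the BlueBee Lexogen QuantSeq FWD pipeline 2.2.2. For its aligner and annotation nothing is stated in those labels. The deposited counts are whole reads per gene, and 0.296% of them were dropped by the filter on low counts. Per the file headers, the authors' DESeq2 tables also hold normalized values rounded to whole numbers (treated as a score, not used), log2 fold changes and p-values. Gene names and gene order came from a RefSeq table of TAIR10.1, a different release, which matched 32548 loci, so no coordinates are given.

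Counts were tested with edgeR 4.0.16 (R 4.3.3) by the quasi-likelihood test after filterByExpr and TMM. All 9 libraries entered 1 fit by genotype with 6 residual degrees of freedom. The 95% intervals of log2 fold changes were built from the SE with these residual degrees of freedom. They are wider than the edgeR test implies, and they can include 0 where its unadjusted p is under 0.05. Tests were two-sided, with Benjamini-Hochberg adjustment over 16434 genes and a threshold of 0.05. Both comparisons against WT share its libraries. Replicate numbers were not used as pairs.

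The members and lists were chosen with earlier results of these data known. Named genes were the 9 members, 6 other family loci, the called genes of the gibberellin list and, for each called member, the 2 most similar genes. TINY and TINY2 are named as targeted genes, and no locus for the tiny4 part of the tiny124 label was read. GAI, RGA, RGL3, GID1A, GID1C and GA2OX2 and the markers PI, SEP2, RHD6 and SESA1 are list genes named beyond this rule, chosen after their values were seen. Alternatives were DESeq2 1.42.0, its size factors in edgeR, no filter, a minimum of 5 CPM in 3 or more libraries, fits of 6 libraries, a replicate block, and leaving out each library.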

Additional observations from a re-analysis of the deposited data

How the results depend on the processing

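GASA1 and GASA6 in TINYOE, against WT and against tiny124, and GASA14 in TINYOE against tiny124 kept direction and call in all 15 alternatives. GASA14 in tiny124 against WT lost its call with the 6 libraries compared only (adjusted p = 0.0653, edgeR), and members called higher there went from 1 to 0. With the replicate block its log2 fold change was 0.92 (edgeR adjusted p = 0.0542), again leaving 0 members, and GASA4 in TINYOE against tiny124 was -0.69 (0.062). Same-numbered libraries correlated from -0.379 to 0.474 in their deviations from genotype means, and different-numbered ones from -0.565 to 0.577. With means of 3 libraries these correlations cannot decide whether the numbers pair the samples, and the labels do not say. With no filter, GASA14 in TINYOE against WT was called (-0.59, edgeR adjusted p = 0.032), giving 2 members lower, as was AT2G14900 in tiny124 against WT (0.0274). The filter of 5 CPM left 1 gibberellin gene lower in TINYOE against WT and 1 against tiny124. This filter removed SWEET13 from testing, so its call there was not retested. With 6 libraries only, 1 gibberellin gene was higher in TINYOE than in tiny124.

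Over all tested genes in tiny124 against WT, 287 were called higher and 124 lower. No filter gave 488 and 218, 6 libraries gave 81 lower and the replicate block 75 lower. In TINYOE against tiny124, 777 were lower, and 1167 with 6 libraries. Leaving out 1 library at a time gave 868 to 2141 higher and 712 to 1891 lower in TINYOE against WT, 129 to 375 and 34 to 151 in tiny124 against WT, and 481 to 1131 and 461 to 1074 in TINYOE against tiny124. Members called lower in TINYOE against WT ranged from 1 to 2, and members called higher in tiny124 from 0 to 1. Gibberellin genes ranged from 0 to 2 higher in TINYOE and 0 to 1 higher and 0 to 1 lower in tiny124 against WT, and from 1 to 2 lower in TINYOE against tiny124.

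Directions turned only in values that were not called. Without WT replicate 1, GASA5 was 0.01 and GASA9 0.15 in TINYOE, and GASA9 0.20 in tiny124. GASA4 in TINYOE was 0.07 without WT replicate 3 and 0.02 without TINYOE replicate 3, and GASA9 was 0.05 without TINYOE replicate 1. In tiny124, SWEET13 was 0.08 without WT replicate 3, GASA9 0.02 and 0.03 without tiny124 replicates 1 and 2, and GASA5 0.08 without tiny124 replicate 2. In TINYOE against tiny124, GASA5 was -0.08 and GASA9 0.08 without TINYOE replicate 1, GASA5 -0.35 without tiny124 replicate 2, and GASA9 0.05 without tiny124 replicate 3. Over the fits that left out 1 library, the opposite ends were -0.25 for GASA4, -0.67 for GASA5 and -0.21 for GASA9 in TINYOE against WT. They were -1 for GASA5, -0.16 for GASA9 and -0.71 for SWEET13 in tiny124 against WT, and 0.72 for GASA5 and -0.13 for GASA9 in TINYOE against tiny124. The cause of these changes was not tested. Fits without 1 library rest on fewer samples, and genes under 1 CPM were read by too few counts to show a small difference.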
